A study of Mus musculus with 22 samples.

Results

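Common myeloid progenitors (CMP) were set against 4 populations of the LSK compartment (GATA1+LSK, GATA1-LSK, LMPP and LT-HSC) at the same time, and the genes that differed in 1 direction from all 4 were taken. Of 11118 genes tested, 45 were higher in CMP than in every LSK population and 123 were lower, 168 in all. A gene was called in a comparison when its adjusted p was under 0.05, and it was a member when it was called in all 4 comparisons with the same sign. All cells came from bone marrow of C57BL/6 mice that were 8 weeks old and carried a GATA1-GFP transgene, so CMP and the LSK populations share the reporter. The arrays comprised 4 of CMP, 4 of GATA1+LSK, 4 of GATA1-LSK, 4 of LMPP and 6 of LT-HSC, 22 in all, each an Illumina bead array hybridised with biotin-labelled cRNA amplified from total RNA. The labels do not give the promoter of the transgene, the sort gates, or whether replicates were separate mice or pools, so p-values here measure only the spread between these arrays.

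In the classical scheme of mouse haematopoiesis, LSK cells lack lineage markers and carry Sca-1 and Kit, and they hold the stem cells and the multipotent progenitors. LT-HSC are the long-term stem cells, LMPP are progenitors primed for lymphoid and myeloid fates, and GATA1 is the transcription factor that drives erythroid, megakaryocyte and mast cell genes. CMP are Kit+ progenitors that have lost Sca-1 and give rise to granulocytes, monocytes, erythrocytes and platelets.

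The labels were first checked against defining genes, on the scale of log2 normalised signal that is used throughout, where values near 4.5 were usually not detected above background. The lowest detected signal differed between arrays, from 4.69 on LT-HSC replicate 1 to 5.55 on LT-HSC replicate 6. On some arrays, values somewhat above 5 were therefore also at background. Sca-1 is encoded by Ly6a, and the probe that the deposited file lists under that name ran from 6.35 to 7.42 on the CMP arrays, against 8.80 to 10.47 in GATA1+LSK, 11.29 to 11.97 in GATA1-LSK, 11.37 to 11.94 in LMPP and 12.41 to 13.20 in LT-HSC, with no overlap between CMP and the others. Because Sca-1 is part of the usual gate, this is a check and not a finding. Kit, the receptor for stem cell factor, lay between 11.27 and 12.58 in CMP and was called in no comparison. Mpo, the myeloperoxidase of primary granules, lay between 13.74 and 13.99 in CMP. It was 13.08 to 13.76 in GATA1-LSK, which overlapped CMP, and 13.17 to 13.33 in LMPP. In GATA1+LSK it was 10.40 to 13.25 and in LT-HSC 7.45 to 13.61. Cd34 lay between 7.28 and 7.80 in CMP, below the 8.03 to 8.76 of LMPP. Slamf1, a marker of LT-HSC, measured 6.89 and 6.91 on LT-HSC replicates 1 and 2 and 4.35 to 5.40 on the other LT-HSC arrays. Of these, replicates 3, 4 and 6, at 4.79, 4.90 and 4.35, lay below the lowest detected signal of their array. Slamf1 was 5.35 to 6.75 in GATA1+LSK, so it did not single out LT-HSC. It was 4.39 to 4.57 in CMP, 4.29 to 5.17 in GATA1-LSK and 4.38 to 4.61 in LMPP. Cebpa, a defining myeloid transcription factor of these progenitors, was detected on 0 of the 4 CMP arrays and on 0 of the others, so it could not serve as a marker. Flt3, the receptor that marks LMPP, was dim, and 1 of its 2 probes was detected on 4 of 4 LMPP arrays, at 4.97 to 5.29, and on none of the 18 others. The brighter probe, the one tested, lay at 4.51 to 4.83 in CMP and 4.72 to 5.34 in LMPP.

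Several arrays stood apart within their label. The chip numbers in the labels put the arrays on 4 slides. CMP occupied slides 2 and 4, with 2 arrays each, and shared slide 2 with GATA1+LSK and LT-HSC and slide 4 with GATA1+LSK and LMPP, but shared none with GATA1-LSK. That comparison has no value within a slide, and with slide as a fixed block, where the slides are linked through the other populations, it called 635 genes. Between 12264 and 19015 probes were detected on an array. LT-HSC replicates 5 and 6 carried Mpo at 13.61 and 13.46 and Elane, the gene of neutrophil elastase, at 11.46 and 10.84, levels close to those of CMP, while LT-HSC replicates 1 and 2 had Elane at 5.49 and 5.23. Leaving out LT-HSC replicates 5 and 6, an alternative added after the data had been seen, gave 57 higher genes, including all 45, and 126 lower genes, 121 of them among the 123. Markers of mature neutrophils summed to a signal of 106 to 153 in CMP, against up to 667 in GATA1+LSK and up to 4610 in LT-HSC, and their part in the results was not tested. Camp, among these markers, was highest on LT-HSC replicate 4, at 11.33, against 10.09 on replicate 5 and 7.18 on replicate 6. LT-HSC replicate 4, with Elane at 8.94, was kept in the alternative above.

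Against GATA1+LSK, 723 genes (6.5%) were called, 335 higher (3.01%) and 388 lower (3.49%) in CMP. Against GATA1-LSK there were 853 genes (7.67%), 272 higher (2.45%) and 581 lower (5.23%). Against LMPP there were 655 genes (5.89%), 252 higher (2.27%) and 403 lower (3.62%). The comparison with LT-HSC gave most, 2390 genes (21.5%), 1128 higher (10.1%) and 1262 lower (11.4%). Blocking on the replicate number brought the count against GATA1+LSK to 1105. The 45 genes higher in all 4 comparisons were 0.405% of the genes tested and the 123 lower ones were 1.11%. With the replicate block, 81 genes were higher than all 4, including all 45. Scaling the arrays to a common median, with no quantile step, turned the balance to 27 higher and 145 lower genes, with 253 and 452 against GATA1+LSK and 774 and 1658 against LT-HSC. The 4 comparisons share the CMP arrays, so agreement between them in sign is not independent evidence.

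**Figure D1:**
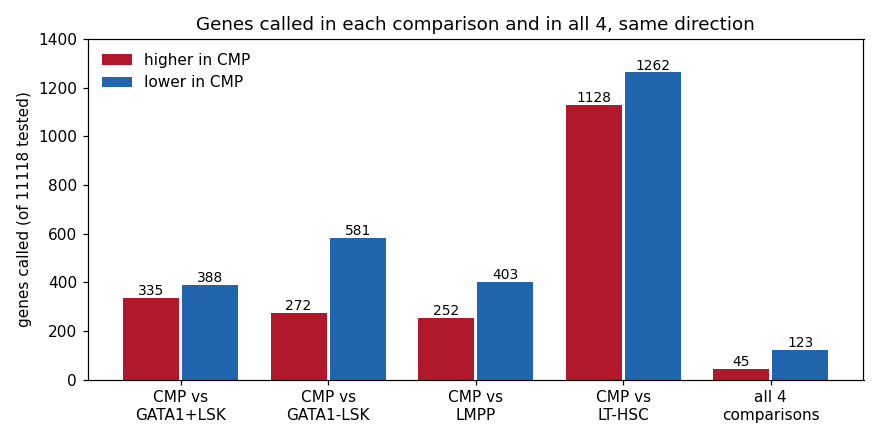
Number of genes (vertical axis) called at adjusted p under 0.05 in each comparison of CMP with an LSK population, and in all 4 with the same sign; red bars are genes higher and blue bars genes lower in CMP. The comparison with LT-HSC called 2390 genes, and 45 higher and 123 lower genes were called in all 4.

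Over all genes, 72 (0.648%) had all 4 CMP arrays above all 18 others and 148 (1.33%) had them all below. Among the members, 37 of the 45 higher genes and 97 of the 123 lower genes did so. The smallest of a gene's 4 differences ran from 0.54 to 4.31 among the higher genes and from 0.59 to 4.37 in size among the lower ones, with medians of 1.32 in both directions on the log2 scale. At least a 2-fold difference from every population was shown by 35 of the 45 higher genes and 95 of the 123 lower genes. LMPP was the closest population for 18 of the 45 higher genes. GATA1-LSK was the closest for 10, GATA1+LSK for 9 and LT-HSC for 8. The lower genes divided differently, with GATA1+LSK the closest for 55, LMPP for 55, LT-HSC for 7 and GATA1-LSK for 6. Of the genes that missed membership by 1 comparison, 55 higher genes missed LMPP, 37 GATA1+LSK, 17 GATA1-LSK and 3 LT-HSC, while 129 lower genes missed LMPP, 103 GATA1+LSK, 5 GATA1-LSK and 1 LT-HSC.

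The promoters of a few members are shown because they belong to genes that moved together and hold the motifs searched. They were chosen for holding a match, so they do not show how common a motif was. Sequences are from RefSeq on GRCm38.p6 and run 5′ to 3′ on the gene's strand, the 250 bases before the first listed start, with the motif matches in capitals. F13a1 (chr13:37050245-37050494, minus strand) holds GAGGAAG, the core bound by PU.1. Cx3cr1 (chr9:120068297-120068546, minus strand) holds TTGCNNNA, a C/EBP-like pattern, at 2 places, once on each strand. Fosb (chr7:19310046-19310295, minus strand) holds that pattern on the reverse strand, Zfp36 (chr7:28379229-28379478, minus strand) a CArG box, the element bound by serum response factor, and Dusp1 (chr17:26508473-26508722, minus strand) the cyclic AMP response element TGACGTCA.
F13a1: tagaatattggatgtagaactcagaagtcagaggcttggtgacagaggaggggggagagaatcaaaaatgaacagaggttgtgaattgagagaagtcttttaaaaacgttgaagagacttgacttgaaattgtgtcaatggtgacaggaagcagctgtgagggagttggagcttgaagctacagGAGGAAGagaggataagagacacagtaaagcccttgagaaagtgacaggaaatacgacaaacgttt
Cx3cr1: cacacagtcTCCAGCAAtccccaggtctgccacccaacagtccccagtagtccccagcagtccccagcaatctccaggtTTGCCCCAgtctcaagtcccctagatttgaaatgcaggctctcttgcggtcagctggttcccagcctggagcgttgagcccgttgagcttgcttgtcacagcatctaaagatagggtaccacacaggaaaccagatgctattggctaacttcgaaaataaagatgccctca
Fosb: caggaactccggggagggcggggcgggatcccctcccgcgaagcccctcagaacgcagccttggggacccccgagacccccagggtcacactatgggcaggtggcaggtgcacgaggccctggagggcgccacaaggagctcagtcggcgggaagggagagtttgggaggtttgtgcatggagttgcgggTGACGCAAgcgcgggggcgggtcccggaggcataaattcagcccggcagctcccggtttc
Zfp36: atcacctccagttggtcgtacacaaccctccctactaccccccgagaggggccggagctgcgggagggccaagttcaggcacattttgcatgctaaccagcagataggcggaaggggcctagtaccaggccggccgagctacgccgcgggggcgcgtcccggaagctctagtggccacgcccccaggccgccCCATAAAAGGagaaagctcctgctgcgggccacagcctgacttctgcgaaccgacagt
Dusp1: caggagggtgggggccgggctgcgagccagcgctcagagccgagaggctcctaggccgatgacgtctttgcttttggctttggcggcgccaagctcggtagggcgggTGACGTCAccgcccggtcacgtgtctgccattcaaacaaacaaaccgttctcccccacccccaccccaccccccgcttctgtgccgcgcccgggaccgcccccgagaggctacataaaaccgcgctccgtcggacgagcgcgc

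The windows searched run from 250 bases before the start to 50 after it. A window was found for 36 of the 45 higher genes, 100 of the 123 lower genes and 9020 of the 11118 tested genes, and both strands were searched. GAGGAAG was in 13.9% of the higher, 15% of the lower and 13.1% of the tested genes' windows. TTGCNNNA was in 19.4%, 34% and 28.8%, and AGATAA, the GATA motif, in 13.9%, 5% and 6.85%, in the same order. The CArG box and TGACGTCA were added after the data had been seen. Each was in 0 of 36 windows of higher genes and in 2% of the windows of lower genes, where the shares over the tested genes were 1.44% and 3.1%. Of the 11 immediate-early members described below, 9 had a window. Among these 9, the CArG box was in 1, TGACGTCA in 1 and TTGCNNNA in 4. Matches of different motifs may overlap, and a match is a description of these windows only.

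Genes related to monocytes held most of the members found on the higher side by the lists. Of 13 genes tested on the list for monocytes and macrophages, 5 were higher in CMP than in all 4 populations, namely F13a1, Ly86, Cx3cr1, Ccl9 and Ccr2, and none was lower. Over all genes, 0.405% were higher than all 4. The list had 10 members higher against GATA1+LSK (3.01% of all genes), 10 against GATA1-LSK (2.45%), 6 against LMPP (2.27%) and 9 against LT-HSC (10.1%), with medians of 2.31, 1.79, 0.77 and 1.52, against medians of 0.02, -0.01, -0.01 and 0.06 over all genes. A separate list of tissue macrophage markers had 6 genes tested. The 2 that were called, the complement genes C1qb and C1qc, were lower than in LMPP, by -1.83 ± 0.44 and -1.26 ± 0.35 (SE), as were 3.62% of all genes. The 8 markers on the array summed to a signal of 272 to 537 in CMP and 278 to 520 in LMPP. They summed to 177 to 936 in GATA1+LSK, 269 to 571 in GATA1-LSK and 174 to 1500 in LT-HSC. Adgre1, also on that list, was undetected on every LSK array but not on every CMP array. In these bulk samples, more cells of a type and more RNA per cell cannot be told apart.

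F13a1, which encodes the A subunit of coagulation factor XIII and is expressed by monocytes, led the higher genes. Its signal was 10.47, 10.11, 9.48 and 9.57 on the CMP arrays. It was 4.54, 4.46, 4.46 and 4.36 in GATA1+LSK, 5.30, 5.38, 6.12 and 5.58 in GATA1-LSK, 5.13, 5.41, 4.72 and 5.08 in LMPP, and 4.37 to 4.95 with a median of 4.50 in LT-HSC. Every CMP array was over 3 units above every other array, and the other groups lay close together. The gene was detected on no array of GATA1+LSK or LT-HSC, so CMP were at least 30.0-fold and at least 28.3-fold higher there. The fitted differences were 4.31 ± 0.23 from GATA1-LSK and 4.82 ± 0.23 from LMPP (SE), and the highest adjusted p over the 4 comparisons was 6.83e-11.

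Ly86, also called MD-1, pairs with the receptor RP105 on myeloid and B cells. Its signal was 8.60, 8.04, 8.88 and 8.11 in CMP, against 6.69, 6.63, 6.56 and 6.39 in LMPP, the closest population, and 4.39 to 6.48 over the remaining 14 arrays. The CMP arrays did not overlap any other, and the difference from LMPP was 1.84 ± 0.39 (SE, adjusted p = 0.00422). Cx3cr1, the fractalkine receptor of monocytes, had 7.60, 8.23, 6.89 and 7.09 in CMP, against 5.92, 6.22, 6.58 and 5.09 in LMPP. It was not detected in GATA1+LSK or GATA1-LSK, so that CMP were at least 5.47-fold and 5.55-fold higher than these, and the difference from LMPP was 1.5 ± 0.28 (SE, adjusted p = 0.00119). With the arrays scaled to a common median, neither Ly86 nor Cx3cr1 was a member. The call of Ly86 also ended without slide 4, and that of Cx3cr1 without slide 2.

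Ccr2, the receptor through which monocytes leave the marrow, was dimmer. It measured 6.21, 6.06, 5.70 and 5.26 in CMP and was detected on none of the 18 other arrays. CMP exceeded them by at least 1.75-fold (GATA1+LSK), 1.77-fold (GATA1-LSK), 1.85-fold (LMPP) and 1.65-fold (LT-HSC), with a highest adjusted p of 6.27e-05. With the arrays scaled to a common median, Ccr2 was not a member (highest adjusted p = 0.202). Ccl9, a chemokine of myeloid cells, was bright in CMP, at 12.83, 12.52, 11.87 and 12.59, and also in LMPP, at 11.22, 11.58, 10.90 and 10.83. The difference from LMPP of 1.32 ± 0.39 (SE) passed narrowly (adjusted p = 0.0434), and with slide as a fixed block the highest adjusted p was 0.0936. The call ended in 11 of 22 refits that left out 1 array, at most with 0.144 without CMP replicate 1. The 8 monocyte-related genes that were not members included Mpeg1, Tyrobp and Emb in which LMPP was the comparison missed, with CMP minus LMPP at 0.51, 0.75 and -0.08.

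Irf8, the transcription factor that directs monocyte and dendritic cell development, was the 1 member among 9 myeloid transcription factors tested. It measured 7.73, 7.71, 7.63 and 8.98 in CMP, against 6.94, 6.63, 6.93 and 6.47 in LMPP, 4.31 to 4.53 in GATA1+LSK, 4.84 to 5.13 in GATA1-LSK and 4.91 to 6.13 in LT-HSC. LMPP stood between CMP and the other populations, and the difference of 1.27 ± 0.27 (SE) from it was called (adjusted p = 0.00416). Irf8 was not a member with the arrays scaled to a common median or without slide 4. Spi1, which encodes PU.1, was 1.84 ± 0.32 above GATA1+LSK and 1.45 ± 0.29 above LT-HSC (SE, both called), but 0.33 ± 0.32 from LMPP was not. Csf1r, the receptor for macrophage colony-stimulating factor, was higher than 3 of the populations, and its difference of 0.77 ± 0.26 (SE) from LMPP missed the threshold (adjusted p = 0.103).

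**Figure D2:**
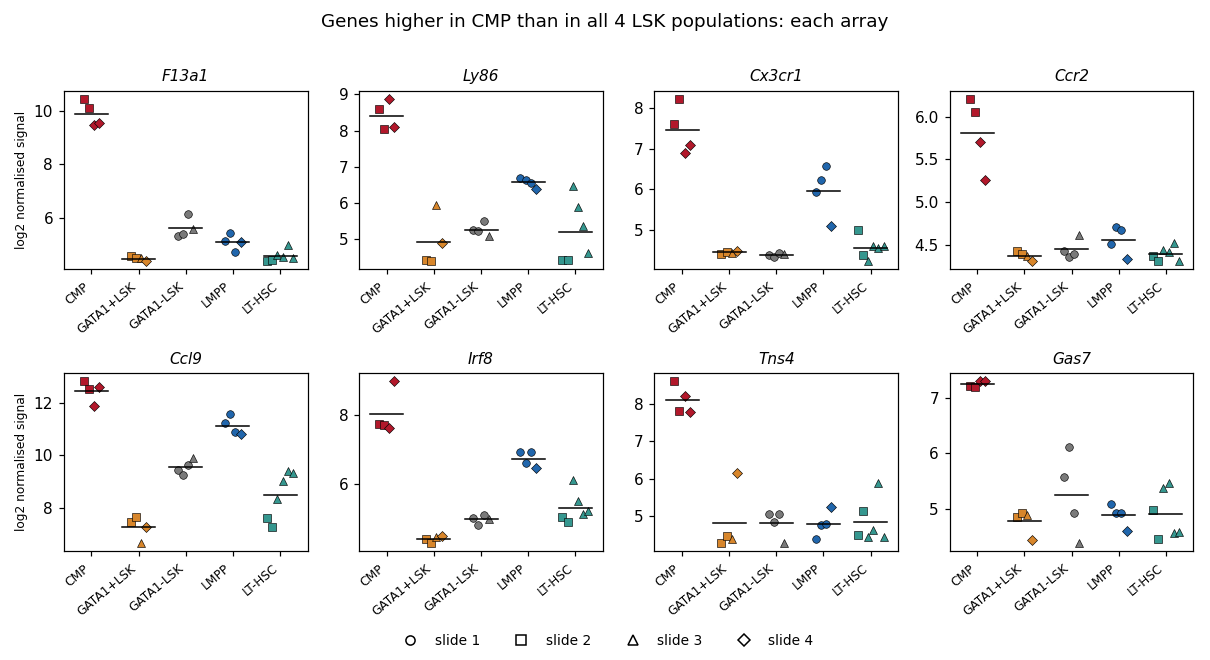
Log2 normalised signal (vertical axes) of 8 genes higher in CMP than in all 4 LSK populations, 1 point per array with CMP at the left; the marker shape gives the slide and the line the mean of the population. All 4 CMP arrays lie above the 18 others for each gene, and LMPP lies nearest to CMP for Ly86, Cx3cr1, Ccl9 and Irf8.

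Beyond these lists, the leading higher genes belonged to varied classes. Tns4, a tensin that links integrins to the cytoskeleton, measured 8.61, 7.80, 8.21 and 7.78 in CMP, against 4.27 to 6.14 over the other 18 arrays. Its 4 differences were nearly equal, 3.28, 3.29, 3.30 and 3.27 in the order GATA1+LSK, GATA1-LSK, LMPP and LT-HSC, with SE of 0.37, 0.37, 0.37 and 0.34. No population stood closer to CMP than another for this gene. Gas7, a growth-arrest-specific cytoskeletal protein, behaved alike at a lower level, with 7.22, 7.19, 7.30 and 7.31 in CMP and differences between 2.0 and 2.47. Rab44, a large Rab GTPase, was bright in CMP at 12.22 to 12.63 and lay 2.36 ± 0.56 above GATA1-LSK, the closest (SE, adjusted p = 0.00934).

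Cacna1d, a subunit of an L-type calcium channel, showed an ordered pattern. It measured 10.87, 9.81, 8.76 and 9.32 in CMP, 8.30, 8.20, 8.14 and 7.77 in LMPP and 5.67 to 7.11 in GATA1-LSK, and it was detected on no GATA1+LSK array. CMP were at least 25.8-fold higher than GATA1+LSK, and 1.59 ± 0.42 above LMPP (SE, adjusted p = 0.0254). Another detected probe of this gene had the opposite sign in the comparisons, so the call holds for the brightest probe. It ended when any of 5 arrays was left out, with an adjusted p of up to 0.125 without CMP replicate 1. Clec9a, a lectin of dendritic cells and their progenitors, measured 6.90, 6.76, 5.59 and 6.94 in CMP and was detected in neither GATA1+LSK nor GATA1-LSK, at least 2.92-fold and 2.97-fold below CMP. Nostrin, which binds endothelial nitric oxide synthase, was at 6.56 to 7.13 in CMP, at least 3.6-fold above GATA1+LSK, 3.65-fold above GATA1-LSK and 3.39-fold above LT-HSC.

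Anxa3, an annexin of neutrophils and monocytes, measured 12.21, 12.47, 11.76 and 12.15 in CMP, against 9.61 to 10.48 in LMPP. It was 10.66 and 9.77 on LT-HSC replicates 5 and 6 and 6.51 to 8.53 on the other LT-HSC arrays, the same arrays that were high in Mpo and Elane. The difference from LMPP was 2.26 ± 0.63 (SE, adjusted p = 0.0346), and with slide as a fixed block the highest adjusted p was 0.0904. The call also ended when any of 6 single arrays was left out (up to 0.102 without LMPP replicate 3). Dram1, a lysosomal membrane protein of autophagy, was 1.83 ± 0.42 above LT-HSC, its closest population, and its highest adjusted p with slide as a fixed block was 0.0677. Slc2a6, a sugar transporter, Atp8b4, a flippase, and Wdcp, a WD repeat protein, were each closest to LMPP, by 1.78, 1.65 and 1.74. Wdcp was not a member with slide as a fixed block (highest adjusted p = 0.114). Hsd17b1, an enzyme of oestradiol synthesis, passed narrowly (highest adjusted p = 0.0445), and with slide as a fixed block its highest adjusted p was 0.577. Leaving out any of 14 single arrays ended its call (up to 0.184 without CMP replicate 4).

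The glycolysis and the heme lists gave 1 member each. Hk3, the hexokinase of myeloid cells, was the member among 11 glycolysis genes tested, with 12.14, 12.14, 12.07 and 12.09 in CMP. It had 7.50 to 8.86 in GATA1+LSK, 10.28 to 10.95 in GATA1-LSK, 9.88 to 10.67 in LMPP and 9.19 to 10.46 in LT-HSC. The CMP arrays agreed to within 0.07 and the difference was smallest against GATA1-LSK, 1.42 ± 0.29 (SE, adjusted p = 0.00227). Alas1, the first enzyme of heme synthesis in most tissues, was the member among 9 heme and iron genes, with 11.53, 11.88, 11.26 and 11.87 in CMP, against 9.18 to 10.93 over the others. Its differences lay between 1.49 and 1.78, and the highest adjusted p was 0.00441.

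**Figure D3:**
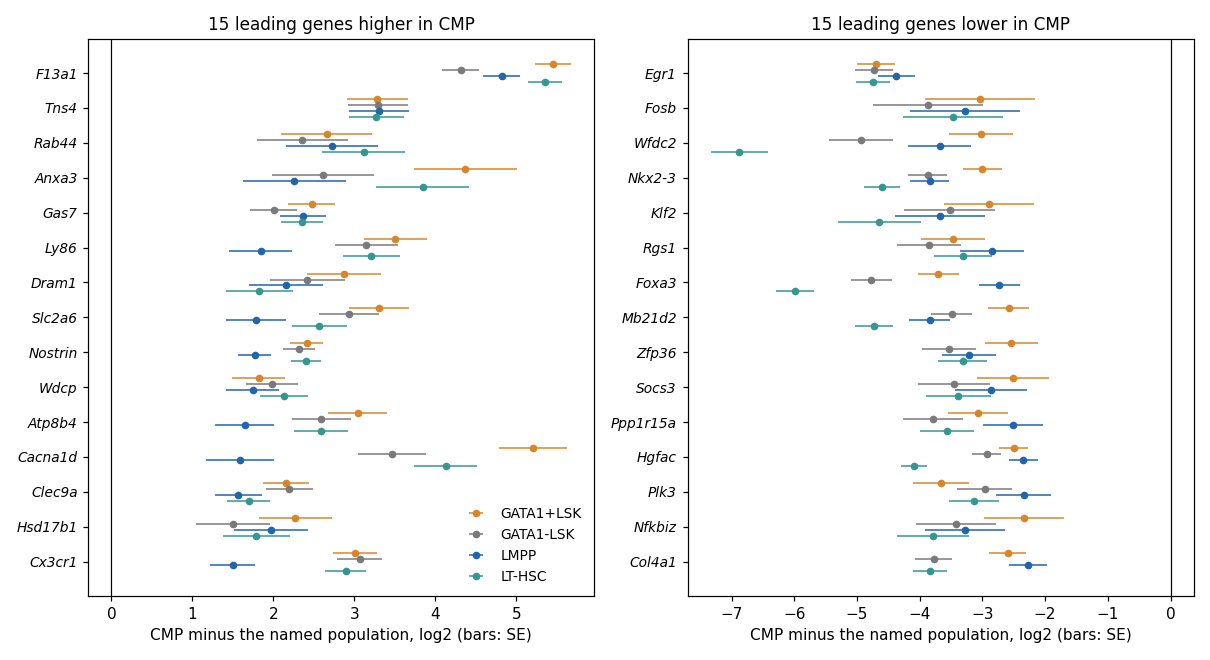
Difference in log2 normalised signal, CMP minus each LSK population (horizontal axis, bars are SE of the fit), for the 15 leading higher genes at the left and the 15 leading lower genes at the right; colours name the population. Tns4 and Egr1 have nearly equal differences in the 4 comparisons, whereas Cacna1d, Wfdc2 and Foxa3 spread widely.

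Primary granule genes, which encode the enzymes stored by neutrophil precursors, had no member among 11 tested. CMP had the higher mean in all 4 comparisons for 8 of them, and for 2633 of all 11118 genes tested. Higher calls were made for 5 against GATA1+LSK (3.01% of all genes), 0 against GATA1-LSK (2.45%), 4 against LMPP (2.27%) and 8 against LT-HSC (10.1%), with medians of 2.10, 0.58, 0.63 and 2.36. With the replicate block there were 3 members, and 8 genes were called against GATA1+LSK and 4 against GATA1-LSK. The mean over the 11 genes was 10.41 to 10.73 on the CMP arrays, 9.63 to 10.04 in GATA1-LSK, 8.89 to 9.07 in LMPP, 7.94 to 9.11 in GATA1+LSK and 6.67 to 10.47 in LT-HSC. LT-HSC replicates 5 and 6, at 10.47 and 10.27, came closest to the CMP level. Leaving them out, 2 of the 11 were called in all 4. Prtn3, the gene of proteinase 3, came closest in the full set, with 14.37, 14.34, 14.41 and 14.00 in CMP against 14.01, 13.65, 13.51 and 13.77 in GATA1-LSK, a difference of 0.55 ± 0.24 (SE, adjusted p = 0.211).

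Among the lower genes, the immediate-early genes were the largest group. These genes are transcribed within minutes of a signal without new protein synthesis, and most encode transcription factors or feedback regulators. All 19 tested had a lower mean in CMP than in each of the 4 populations, as had 2423 of all 11118 genes tested. Of the 19, 11 were members, where 1.11% of all genes were lower than all 4: Egr1, Fos, Fosb, Jun, Jund, Ier2, Ier3, Dusp1, Klf2, Klf6 and Zfp36. The calls were 12 against GATA1+LSK (3.49% of all genes), 14 against GATA1-LSK (5.23%), 13 against LMPP (3.62%) and 14 against LT-HSC (11.4%), with medians of -1.88, -2.06, -2.13 and -2.02, where the median over all genes was within 0.06 of 0. The list had been described in other comparisons of these data and is not independent evidence of its direction.

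Egr1, a zinc finger transcription factor, showed the largest of these differences. It measured 7.83, 7.76, 7.75 and 7.99 in CMP. It was 12.71, 12.94, 12.28 and 12.21 in GATA1+LSK, 12.62, 12.72, 12.85 and 12.08 in GATA1-LSK, 12.61, 12.33, 12.25 and 11.63 in LMPP, and 12.06 to 13.40 with a median of 12.27 in LT-HSC. The CMP arrays fell together over 3 units below the lowest other array, and the 4 LSK populations overlapped one another. The differences were -4.70 ± 0.30, -4.73 ± 0.30, -4.37 ± 0.30 and -4.74 ± 0.27 (SE) in the order GATA1+LSK, GATA1-LSK, LMPP and LT-HSC, and the highest adjusted p was 1.91e-09.

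Fos, a subunit of the AP-1 transcription factor, measured 8.06, 8.59, 7.67 and 7.71 in CMP, against 10.96, 10.81, 9.28 and 9.34 in GATA1+LSK. It was 11.56, 11.41, 11.42 and 10.76 in GATA1-LSK, 12.02, 12.01, 11.32 and 9.30 in LMPP and 10.65 to 11.96 in LT-HSC. No array of another population reached the CMP range, although GATA1+LSK replicates 3 and 4 and LMPP replicate 4 came within 1 unit of its top. The difference was smallest against GATA1+LSK, -2.09 ± 0.50 (SE, adjusted p = 0.0109). Fosb, another AP-1 subunit, spread more, with 5.73, 5.62, 5.09 and 5.36 in CMP, 10.28, 10.06, 7.25 and 6.36 in GATA1+LSK and 10.12, 9.43, 9.09 and 6.24 in LMPP. Its highest adjusted p was 0.0386, and it was 0.0525 with slide as a fixed block and up to 0.13 when 1 array was left out (GATA1+LSK replicate 2), with 9 of 22 such refits ending the call.

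Zfp36, which encodes tristetraprolin, a protein that destabilises cytokine mRNA, measured 8.94, 9.44, 10.04 and 9.73 in CMP, against 12.54, 12.97, 11.17 and 11.62 in GATA1+LSK and 13.14, 13.37, 13.32 and 11.15 in LMPP. Klf2, a Krüppel-like factor of quiescent lymphocytes and endothelium, measured 4.87, 5.36, 4.38 and 5.21 in CMP, against 9.44, 9.15, 9.62 and 6.32 in LMPP. Both genes had CMP below every other array. The call of Klf2 ended without GATA1+LSK replicate 1 or 2, with an adjusted p of up to 0.0655. Without slide 2, neither Klf2 nor Zfp36 was a member. Dusp1, a phosphatase that turns off MAP kinases, differed by -2.13 ± 0.44 (SE) from LMPP, the closest (adjusted p = 0.0034). Jun passed narrowly against LT-HSC (-1.65 ± 0.58, adjusted p = 0.0446), and its CMP arrays, at 6.93 to 7.55, overlapped LT-HSC replicate 6 at 7.38.

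The level of these genes also moved with the slide. The mean over the 19 genes was 6.79, 6.97, 6.86 and 6.75 on the CMP arrays. In GATA1+LSK it was 9.33 and 9.39 on slide 2, 8.17 on slide 3 and 8.17 on slide 4. In GATA1-LSK it was 9.27 to 9.35 on slide 1 and 8.52 on slide 3, in LMPP 9.25 to 9.51 on slide 1 and 7.79 on slide 4, and in LT-HSC 9.81 and 9.86 on slide 2 and 8.49 to 8.75 on slide 3. The CMP arrays were alike on both of their slides, whereas all 4 LSK populations had lower means on slides 3 and 4 than on slides 1 and 2. Within slide 2 the difference in Egr1 was -5.03 from GATA1+LSK and -5.58 from LT-HSC, and within slide 4 it was -4.34 from GATA1+LSK and -3.76 from LMPP. For Fosb the same 4 values were -4.50, -4.70, -1.13 and -1.02, and for Zfp36 they were -3.56, -4.11, -1.73 and -1.27. Slide 4 values rest on 1 array of each LSK population and carry no test. With slide as a fixed block 10 of the 19 genes were members, without slide 2 there were 5, and without LMPP replicate 4 there were 13.

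**Figure D4:**
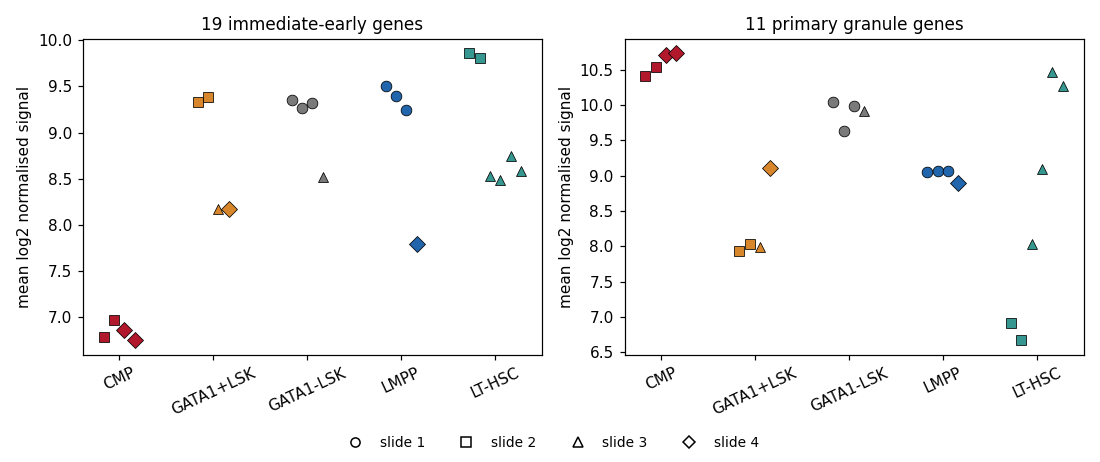
Mean log2 normalised signal (vertical axes) over 19 immediate-early genes at the left and 11 primary granule genes at the right, 1 point per array with CMP first; the marker shape gives the slide. The CMP arrays are at 6.75 to 6.97 and lowest for the immediate-early genes, and at 10.41 to 10.73 for the granule genes, where LT-HSC replicates 5 and 6 reach 10.47 and 10.27.

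The 15 leading lower genes held 5 further genes of signalling and stress, grouped here after their values were seen and not from a list. Rgs1, which shortens G protein signals from chemokine receptors, measured 9.38, 9.21, 8.96 and 8.48 in CMP, against 10.07 to 13.33 over the others. The difference was smallest from LMPP, -2.85 ± 0.51 (SE, adjusted p = 0.000843). With the mean of a gene's probes in place of the brightest, Rgs1 was not a member (highest adjusted p = 0.0847). Socs3, an inhibitor of cytokine receptor signals, differed by -2.52 ± 0.57 from GATA1+LSK (SE, adjusted p = 0.00739). Without slide 2, Socs3 was not a member (highest adjusted p = 0.227). Nfkbiz, a nuclear modulator of NF-κB, differed by -2.33 ± 0.64 from GATA1+LSK (adjusted p = 0.0273), a call that ended when any of 5 arrays was left out (up to 0.093 without CMP replicate 3). Ppp1r15a, the stress-induced regulator of the eIF2α phosphatase, and Plk3, a stress-responsive kinase, were closest to LMPP, at -2.51 and -2.34. With slide as a fixed block the highest adjusted p of Ppp1r15a was 0.0762. For Rgs1 and Ppp1r15a the lowest array outside CMP was LMPP replicate 4, at 10.07 and 8.64.

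Stem cell genes contributed 5 members of 19 tested, Nkx2-3, Cdkn1c, Robo4, Ndn and Txnip, and none was higher than all 4. Over all genes, 1.11% were lower than all 4. The list had 11 genes lower against GATA1+LSK (3.49% of all genes), 11 against GATA1-LSK (5.23%), 5 against LMPP (3.62%) and 15 against LT-HSC (11.4%), with 1 gene, Tek, the angiopoietin receptor, higher than LMPP. The medians were -1.18, -1.38, -0.01 and -1.56. Several canonical genes of the list were low in both CMP and LMPP. Esam, an adhesion molecule of stem cells, measured 7.24, 7.75, 7.80 and 8.31 in CMP and 7.19 to 7.69 in LMPP, against 11.03 to 12.19 in the other 3 populations.

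Nkx2-3, a homeobox factor of spleen and gut vasculature that is expressed in stem cells, measured 7.17, 7.01, 7.18 and 7.27 in CMP. It was 10.27, 10.35, 9.86 and 10.14 in GATA1+LSK, 10.80, 11.28, 11.10 and 10.92 in GATA1-LSK, 11.15, 11.20, 11.04 and 10.58 in LMPP and 11.14 to 12.85 in LT-HSC. The populations did not overlap CMP, and the difference was -3.0 ± 0.31 from GATA1+LSK, the closest, and -4.60 ± 0.28 from LT-HSC (SE, highest adjusted p = 9.16e-07). Cdkn1c, which encodes the cell cycle inhibitor p57 and maintains stem cell quiescence, measured 6.71, 6.54, 7.54 and 6.70 in CMP, against 8.67 to 9.52 in LMPP, 10.30 to 10.59 in GATA1+LSK, 10.61 to 11.52 in GATA1-LSK and 11.98 to 12.52 in LT-HSC. The LSK populations formed steps with LMPP lowest and LT-HSC highest, and CMP lay below all of them, -2.17 ± 0.24 from LMPP and -5.48 ± 0.22 from LT-HSC (SE). It was also the only member among 11 G1 cyclins and inhibitors tested.

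Robo4, a guidance receptor of stem cells and endothelium, was closest in GATA1+LSK, at -1.78 ± 0.31 (SE, adjusted p = 0.000522), but was not a member without slide 2 (highest adjusted p = 0.0682). Ndn, the growth suppressor necdin, was detected on 2 CMP arrays, and its difference of -1.27 ± 0.37 from LMPP passed narrowly (adjusted p = 0.0435) and ended as a call in 13 of 22 refits without 1 array (up to 0.15 without LMPP replicate 3). Txnip, the thioredoxin-interacting protein, was bright in CMP at 12.24 to 12.64, against 12.87 to 14.12 in the others, and differed by -0.88 to -1.56. Txnip was not a member without slide 2, with only the populations compared or with a 2-fold minimum. Mecom and Hlf, transcription factors of stem cells, were not members. CMP minus LT-HSC was -0.78 ± 0.28 for Mecom (adjusted p = 0.0484), which was called, and 0.03 ± 0.29 for Hlf. Hlf was dim, with a median of 5.29 in LT-HSC, 6.04 in LMPP and 5.58 in CMP. The lowest detected signal was 5.14 to 5.55 on LT-HSC replicates 3 to 6, so the small difference in Hlf is limited by background.

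**Figure D5:**
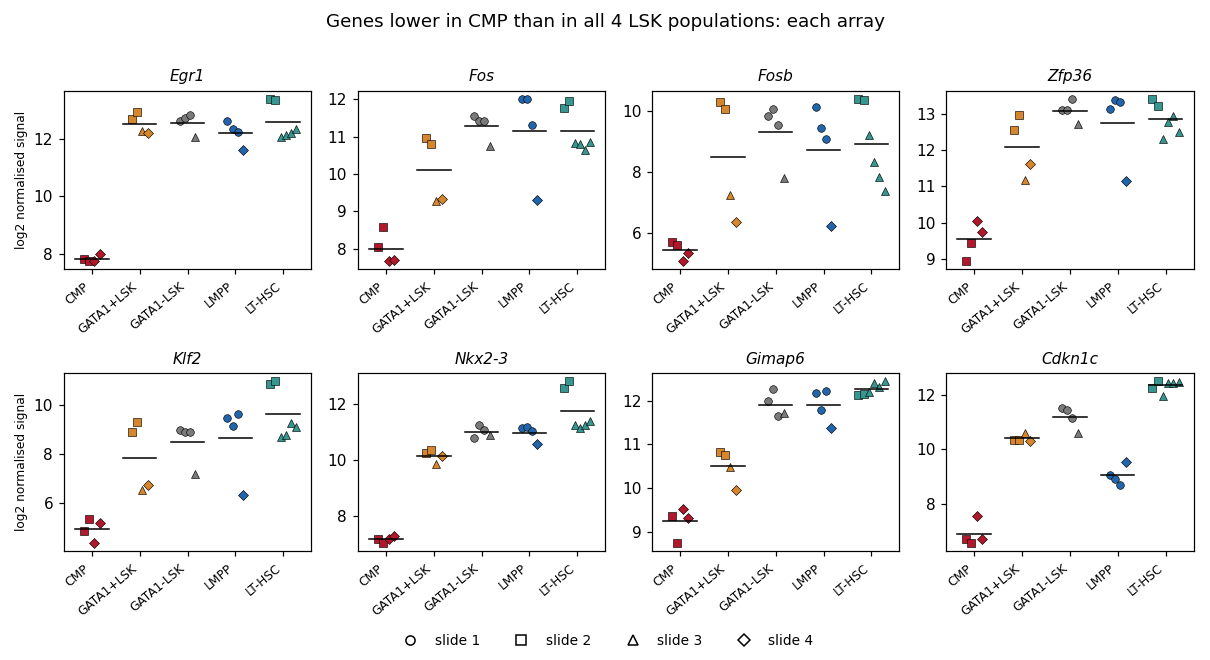
Log2 normalised signal (vertical axes) of 8 genes lower in CMP than in all 4 LSK populations, 1 point per array with CMP at the left; the marker shape gives the slide and the line the mean of the population. CMP lies below all other arrays for each gene, and for Fos, Fosb, Zfp36 and Klf2 the arrays of slides 3 and 4 lie below those of slides 1 and 2 within an LSK population.

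The Gimap genes lie in 1 cluster on chromosome 6 and encode GTPases of immune cells that support lymphocyte survival. Of 7 tested, Gimap8, Gimap5, Gimap6 and Gimap1 were members, where 1.11% of all genes were lower than all 4. Lower calls numbered 4 against GATA1+LSK (3.49% of all genes), 5 against GATA1-LSK (5.23%), 5 against LMPP (3.62%) and 5 against LT-HSC (11.4%). Gimap6 measured 9.36, 8.74, 9.53 and 9.32 in CMP, against 10.82, 10.76, 10.49 and 9.95 in GATA1+LSK, 11.65 to 12.26 in GATA1-LSK, 11.38 to 12.21 in LMPP and 12.12 to 12.45 in LT-HSC. CMP were below all arrays, with GATA1+LSK between CMP and the rest, at -1.27 ± 0.23 (SE, adjusted p = 0.000919). Gimap8 differed by -1.81 ± 0.44 and Gimap5 by -1.39 ± 0.40 from LMPP, the closest in each case, and Gimap1 by -0.86 ± 0.24 from GATA1+LSK (SE, adjusted p = 0.0346). Gimap7 was lower than GATA1-LSK, LMPP and LT-HSC, with -0.18 ± 0.49 from GATA1+LSK not called. Gimap4 and Gimap9 were called in no comparison. The genes lie side by side and are not independent members. Without slide 4, 1 of the 7 was a member, and without slide 2 there were 2. Gimap6 was not a member without slide 2 (highest adjusted p = 0.153). Leaving out 1 array ended the call of Gimap5 for 8 arrays (up to 0.132 without LMPP replicate 1), of Gimap1 for 6 (up to 0.114 without GATA1+LSK replicate 3) and of Gimap8 without CMP replicate 2 (0.0508).

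Several leading lower genes were bright in LT-HSC and near background in CMP. Wfdc2, a secreted protease inhibitor-like protein, measured 4.49, 4.55, 5.16 and 4.91 in CMP, against 8.02, 8.06, 9.40 and 5.72 in GATA1+LSK and 11.03 to 12.16 in LT-HSC. It was detected on 1 CMP array, and the differences ranged from -3.02 ± 0.51 from GATA1+LSK to -6.88 ± 0.46 from LT-HSC (SE). Without slide 2, Wfdc2 was not a member (highest adjusted p = 0.0688). Foxa3, a forkhead factor best known from liver, measured 4.58 to 5.30 in CMP, against 7.04 to 8.59 in LMPP and 10.32 to 11.39 in LT-HSC, with -2.73 ± 0.33 from LMPP and -5.99 ± 0.30 from LT-HSC (SE). Mb21d2 had differences between -2.58 from GATA1+LSK, the closest, and -4.73 from LT-HSC, the farthest. Hgfac, the protease that activates hepatocyte growth factor, and Col4a1, a basement membrane collagen, were closest to LMPP, at -2.35 ± 0.23 and -2.27 ± 0.30 (SE). Because 26 of the 123 lower genes were undetected on at least 1 CMP array, the differences of those genes are limited by background. The stromal and endothelial markers were low in CMP, with a summed signal of 160 to 324, against 174 to 291 in LMPP and 599 to 1240 in the other populations. Of these 9 markers Bgn was called, lower than GATA1+LSK, GATA1-LSK and LT-HSC, Col1a1 and Cdh5 were undetected in CMP, and their part in the results was not tested.

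Lists of other lineages had no member, and the LSK populations lay on both sides of CMP. Of 14 megakaryocyte and platelet genes, 10 were lower in CMP than in GATA1+LSK, as were 3.49% of all genes, and 10 were higher than in LMPP, as were 2.27%, with medians of -1.46 and 1.80. Gp9, part of the von Willebrand factor receptor of platelets, measured 8.71, 9.28, 9.63 and 9.20 in CMP, against 11.69 to 11.81 in GATA1+LSK and 8.07 to 9.0 in LMPP. Gata1 itself was at 6.44 to 6.84 in CMP, where it was called as higher against LMPP and LT-HSC and not called against the GATA1 sorted populations, with 0.89 ± 0.28 from GATA1-LSK (SE, adjusted p = 0.0536). Of 13 erythroid genes 7 were higher than in LMPP and 4 lower than in GATA1+LSK. The list of mast cells, basophils and eosinophils had 9 genes tested, 6 of them higher than in LMPP and 3 lower than in GATA1+LSK. Prss34, a basophil protease, differed from GATA1+LSK by -5.23 ± 0.29 (SE).

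Cycle genes separated CMP mainly from LT-HSC. Over all genes, 10.1% were higher than in LT-HSC and 2.45% higher than in GATA1-LSK. Of 14 mitosis genes, 13 were higher than in LT-HSC, 3 higher than in GATA1-LSK and none was called against GATA1+LSK or LMPP, and of 25 DNA replication genes 21 were higher than in LT-HSC. Aurkb, the mitotic kinase Aurora B, was 3.01 ± 0.32 above LT-HSC (SE) and 0.47 ± 0.35 above GATA1+LSK. MHC class II genes had 0 members of 11, with 4 lower than in LMPP (3.62% of all genes), 4 lower than in LT-HSC (11.4%) and 2 higher than in GATA1+LSK (3.01%). Lymphoid priming genes had 0 of 13, with 7 lower than in LMPP. No member was found among the lists for ribosome biogenesis (18 tested), cholesterol synthesis (11), interferon response and MHC class I (22), cytokine receptors (16), Hox genes and partners (12) and NADPH oxidase subunits (4). The cytokine receptor list had 1 member, Csf1r, with slide as a fixed block and with the replicate block, where its adjusted p against LMPP was 0.0494 and 0.0328.

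At the threshold, the lowest-ranked members were Uqcrq, a subunit of mitochondrial complex III, with a highest adjusted p of 0.0484, and Src, a tyrosine kinase that was not a member with slide as a fixed block (0.583), with -0.76 ± 0.23 (SE) from LMPP as its smallest difference. Their calls ended in 14 and 17 of the 22 refits without 1 array, with adjusted p up to 0.178 without CMP replicate 1 and 0.173 without LMPP replicate 2. Just outside stood Myb, the transcription factor of progenitor growth, at 8.66, 8.64, 7.11 and 7.76 in CMP and 1.58 ± 0.49 above GATA1-LSK (SE, adjusted p = 0.0508), and Fndc3b at 1.23 ± 0.37 above LMPP (SE, adjusted p = 0.0508, and 0.0234 with the replicate block).

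Where CMP shared a slide with another population, the signs of the members were compared there. On slide 2, with 2 arrays of each population, all 45 higher and all 123 lower genes kept their sign against GATA1+LSK and against LT-HSC. On slide 4, 44 of 45 and 120 of 123 kept it against GATA1+LSK and 45 of 45 and 122 of 123 against LMPP, where 54.5% and 49.8% of all genes were higher in CMP. These arrays were part of the fit that chose the members, so the counts are a description. With slide as a fixed block there were 43 higher genes, 25 of them among the 45, and 102 lower genes, 78 of them among the 123. GATA1-LSK had no slide in common with CMP.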

How the data were processed

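Total RNA of 5 sorted populations was amplified to biotin-labelled cRNA and hybridised to 22 Illumina bead arrays. The deposited intensity values are linear and not normalised, and include values below 0. The deposited detection p-value of a probe compares it with that array's negative controls. In the deposited series matrix the intensity is linear and had been normalised by quantiles, as its columns show. BeadStudio is named per the submitters' processing notes, and its settings are not given in the sources used here. Groups, replicate numbers and chip (slide) numbers come from the labels.

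In R 4.3.3, neqc of limma 3.58.1 corrected the background, added an offset of 16, applied quantile normalisation and took log2. The annotation gave 1 gene for 34885 of 45281 probes, several for 18 and none for 10378, with 34807 symbols updated through RefSeq, and 11118 genes with a probe detected (p under 0.05) on at least 4 arrays were tested through their brightest probe. A group-means model over all arrays (17 residual degrees of freedom) was fitted with lmFit and eBayes, and each comparison is CMP minus the LSK population, two-sided, Benjamini-Hochberg adjusted over all genes. "At least" folds set CMP against the lowest detected signal where the dimmer population was undetected. Precision is limited by how many arrays each population has. The members and lists were chosen with earlier results of these data known. Named genes are the 15 leading non-overlapping genes in each direction, up to 5 called members of each list or its nearest ones, landmark genes and those at the threshold. Other genes named were chosen after their values were seen. The lists without members that are not described by values, sort gate surface genes (8 tested) and markers of macrophages, T and NK cells and B cells, had none called in all 4. Alternatives are in the closing section. Each gene was centred by subtracting its mean within each population. Same-numbered arrays of CMP then correlated over the genes at r = 0.187 to 0.584 with GATA1+LSK and 0.327 to 0.473 with LMPP. With LT-HSC r was 0.174 to 0.582, and with GATA1-LSK -0.341 to 0.255. Every CMP array correlated best, among the LMPP arrays, with the one of its own number, although replicates 1 to 3 shared no slide. In the other populations this held for GATA1+LSK replicates 1 and 4, GATA1-LSK replicates 1 and 4 and LT-HSC replicate 1. On a shared slide r was 0.359 to 0.584 with GATA1+LSK, against 0.187 otherwise. With LT-HSC it was 0.433 and 0.582, against 0.174 and 0.195 otherwise, and with LMPP 0.327, against 0.33 to 0.473 otherwise. Slide and replicate number cannot be told apart for GATA1+LSK and LT-HSC. The main fit did not read the numbers as pairs, and the replicate block was run as an alternative.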

Additional observations from a re-analysis of the deposited data

Results flagged for a closer look

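Among 45 genes described, 225 population groups were tested for a single array far from the others by Dixon's ratio, and 16 (7.11%) stood out, where chance gives about 1 group in 20. LMPP replicate 4, on slide 4, was low in 4 genes: Klf2 at 6.32 (others 9.15 to 9.62), Rgs1 at 10.07 (12.29 to 12.64), Zfp36 at 11.15 (13.14 to 13.37) and Ppp1r15a at 8.64 (11.19 to 11.40). Klf2 was also low on GATA1-LSK replicate 4 on slide 3, at 7.18 (8.88 to 8.97). GATA1+LSK replicate 4 was high in Tns4 at 6.14 (4.28 to 4.46) and in Elane at 7.72 (5.63 to 5.76), and low in Gas7 at 4.44 (4.86 to 4.93), and Atp8b4 was low on GATA1+LSK replicate 1 at 4.27 (4.42 to 4.44), the last 2 near background. Among the CMP arrays, replicate 3 was low in Clec9a at 5.59 (6.76 to 6.94) and high in Mecom at 6.77 (5.93 to 5.96), and replicate 4 was high in Irf8 at 8.98 (7.63 to 7.73). LMPP replicate 3 was high in Mecom at 6.82 (6.29 to 6.34), LT-HSC replicate 5 in Fcgr2b at 6.14 (4.67 to 5.04), GATA1-LSK replicate 3 in Nfkbiz at 10.17 (9.59 to 9.67) and GATA1-LSK replicate 1 in Wdcp at 4.98 (4.55 to 4.61).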

How the results depend on the processing

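In the refits no named member turned its direction in all 4 comparisons, and no called difference of the other named genes turned. Within shared slides, 44 of the 45 higher and 119 of the 123 lower genes kept their sign in every comparison made there. Those arrays were part of the fit that chose the members, so these counts are a description and no test of stability. GATA1-LSK, which shared no slide with CMP, did not enter them. The count against GATA1+LSK (723) was 1429 with slide as a fixed block, 1295 with slide as a random block, 1105 with the replicate block, 479 with only the populations compared, 2634 with array weights and 470 without slide 4. The count against GATA1-LSK (853) was 3039 with array weights and 1370 without slide 3, that against LMPP (655) 2303 with array weights, and that against LT-HSC (2390) 4125 with array weights and 1544 with a 2-fold minimum. The 45 higher genes became 27 with median scaling, 81 with the replicate block, 277 with array weights, 22 without slide 2, 78 without slide 3, 25 when the largest of the 4 p-values was adjusted and 472 in 1 contrast with the mean of the 4. The 123 lower genes became 432 with array weights, 50 without slide 2, 58 by the largest p-value and 772 in that contrast. Leaving out single arrays gave 520 to 767, 605 to 956, 449 to 718 and 1837 to 2539 genes in the 4 comparisons, 30 to 51 higher genes and 81 (without CMP replicate 1) to 140 lower genes. Median scaling moved the median difference over all genes to -0.14, -0.16, -0.13 and -0.22. Of 46 named members, 16 were called in every one of 40 settings, 38 with slide as a fixed block and all 46 with the replicate block, which ended no member's call. Dim signal limits genes near background, and the causes of these changes were not tested.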

Other observations

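The genes given here were picked after their values had been seen and stand for no family or list. Socs2, which restrains growth hormone and cytokine signals, averaged 4.89 ± 0.42 in CMP (SD, n = 4), against 6.40 ± 0.48 in LMPP, 7.60 ± 0.40 in GATA1+LSK, 8.76 ± 0.28 in GATA1-LSK and 9.24 ± 0.89 in LT-HSC. Cish, a STAT5-induced inhibitor, averaged 8.77 ± 0.42 in CMP, against 10.41 ± 0.46 in LMPP and 12.68 ± 0.67 in LT-HSC. Their highest adjusted p-values by limma were 0.0215 for Socs2 and 0.0255 for Cish. Traf1, an adaptor of tumour necrosis factor receptors, and Tnfaip3, the NF-κB inhibitor A20, were lower as well, with smallest differences of -1.72 and -1.22. The arrays overlapped for both, and with slide as a fixed block the highest adjusted p of Tnfaip3 was 0.653.

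Igf2r, the receptor that clears insulin-like growth factor 2, was another member, at 5.11 ± 0.21 in CMP against 7.08 ± 0.53 in GATA1+LSK, 7.54 ± 0.13 in GATA1-LSK, 8.99 ± 0.10 in LMPP and 8.91 ± 0.41 in LT-HSC (SD). Igf2r, Cdkn1c and Ndn are all imprinted genes in the mouse, and no list of imprinted genes was examined. On the higher side, Clec7a, the fungal glucan receptor Dectin-1, averaged 5.93 ± 0.51 in CMP and exceeded LT-HSC by 0.94. Mefv, the pyrin inflammasome sensor, was detected on 3 CMP arrays and averaged 5.60 ± 0.48. Ctsz, a lysosomal cathepsin, averaged 9.37 ± 0.38 in CMP, against 8.02 ± 0.21 in GATA1+LSK, the closest.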
